A study of Mus musculus with 4 samples.

Results

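The 9 HECT-type ubiquitin ligases of the NEDD4 family, namely Wwp1, Wwp2, Nedd4, Nedd4l, Itch, Smurf1, Smurf2, Hecw1 and Hecw2, were followed in the gastrocnemius muscle of the mouse calf. They were chosen by name, because WWP1 is the ligase proposed to act on the transcription factor KLF15. They are 9 of the 22180 genes that the arrays read with a cluster of their own. Each gene was read by its brightest transcript cluster, the set of array probes summarised as 1 value, among the clusters that carry its symbol alone. All 9 passed the level filter that kept 13258 genes.

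The arrays covered 4 groups. They were mice lacking KLF15 in skeletal muscle only (KO) given streptozotocin (STZ), KO mice given vehicle, wild-type (WT) mice given STZ and WT mice given vehicle. STZ destroys the insulin-producing beta cells and makes mice diabetic. It was injected into the peritoneum in 5 daily doses of 50 mg/kg, dissolved in 50 mM sodium citrate at pH 4.5, and vehicle mice received sodium citrate. Muscle was taken at 3 weeks after treatment. The labels do not name the promoter that restricts the deletion to skeletal muscle, the age or sex of the mice, or whether animals were pooled.

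Each group had 1 array. No test between groups was therefore possible, no error between animals can be given, and "higher" and "lower" below describe single arrays. Values are linear intensities. Differences are on the scale of log2(intensity + 3.69). The added constant equals percentile 25 of all values and damps the differences of dim genes. A gene was called changed at 1.5-fold or more on that scale, a difference of 0.585.

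Ubiquitin ligases attach ubiquitin to chosen proteins and so send them to the proteasome or the lysosome, or alter their activity. Ligases of the NEDD4 family take ubiquitin onto a cysteine of their catalytic HECT domain before passing it on. Most recognise substrates through WW domains, which bind short proline-rich motifs ending in tyrosine (PY motifs), either in the substrate itself or in an adaptor. In muscle, family members have been linked to turnover of KLF15, of growth factor and TGF-beta receptors and their SMAD effectors, and to the wasting of denervated fibres. An array reads the transcripts of these ligases only, not their protein amount or their activity.

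Fibre genes were read strongly on every array. The summed intensity of 7 fast-fibre and general fibre markers (Acta1, Ckm, Myh4, Myh1, Tnnt3, Atp2a1 and Actn3) was 45355 in KO STZ, 45482 in KO vehicle, 44819 in WT STZ and 46542 in WT vehicle, and all 7 passed the level filter. Within that list Myh1, singled out after its values were seen, read 2591 in KO STZ, 2660 in KO vehicle, 1889 in WT STZ and 2257 in WT vehicle. KO was above WT for 1 of the 7 markers under vehicle and for 2 under STZ. Sums over other cell markers moved between arrays. The sum of 4 adipocyte markers was 114.2 in KO STZ, 190.7 in KO vehicle, 162.2 in WT STZ and 155.4 in WT vehicle. Over the 4 arrays, the sum of 6 endothelial markers ran between 578.9 in WT STZ and 694.0 in KO vehicle, that of 6 macrophage markers between 139.8 in WT vehicle and 182.4 in KO STZ, and that of 6 fibroblast markers between 2601 in WT vehicle and 3057 in KO STZ. Within the fibroblast list, Col1a1 read 755.8 in KO STZ, 721.3 in KO vehicle, 398.7 in WT STZ and 424.5 in WT vehicle, and Col3a1 was likewise higher on both KO arrays, while Dcn was lower on both. These 3 were singled out after their values were seen. The sum of 4 satellite cell markers stayed between 57.1 and 60.1. Nerve and Schwann cell markers numbered 5 on the array, of which S100b, Nefl and Nefm lay below the level filter, and their sum ran between 181.9 in KO STZ and 229.8 in WT vehicle. The part of these shifts in the ligase values was not tested. In whole muscle, fewer cells of a type and less RNA per cell cannot be told apart.

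Klf15, the deleted gene, read 16.04 in KO STZ, 19.8 in KO vehicle, 72.1 in WT STZ and 50.5 in WT vehicle. Both KO arrays were below both WT arrays. Whether its probes lie inside the deleted stretch could not be read from the labels or the table.

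None of the 9 ligases differed by 1.5-fold in any comparison. Against WT under vehicle, 0 of 9 were called in KO, where 1.36% of all kept genes were. Under STZ, 0 of 9 were called in KO against WT, beside 3.65% of all kept genes. For STZ against vehicle, 0 of 9 were called in WT, beside 1.72% of all kept genes, and 0 of 9 in KO, beside 1.1%. For the STZ difference in KO minus the STZ difference in WT, 0 of 9 were called, beside 5.67%. With 9 genes and shares this low, a count of 0 does not set the family apart from the rest of the array. The widest span of any member over the 4 arrays was that of Wwp2, whose highest intensity was 1.32 times its lowest. The median span of the 9 on the log2 scale was 0.22, beside 0.29 for all kept genes.

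**Figure D1:**
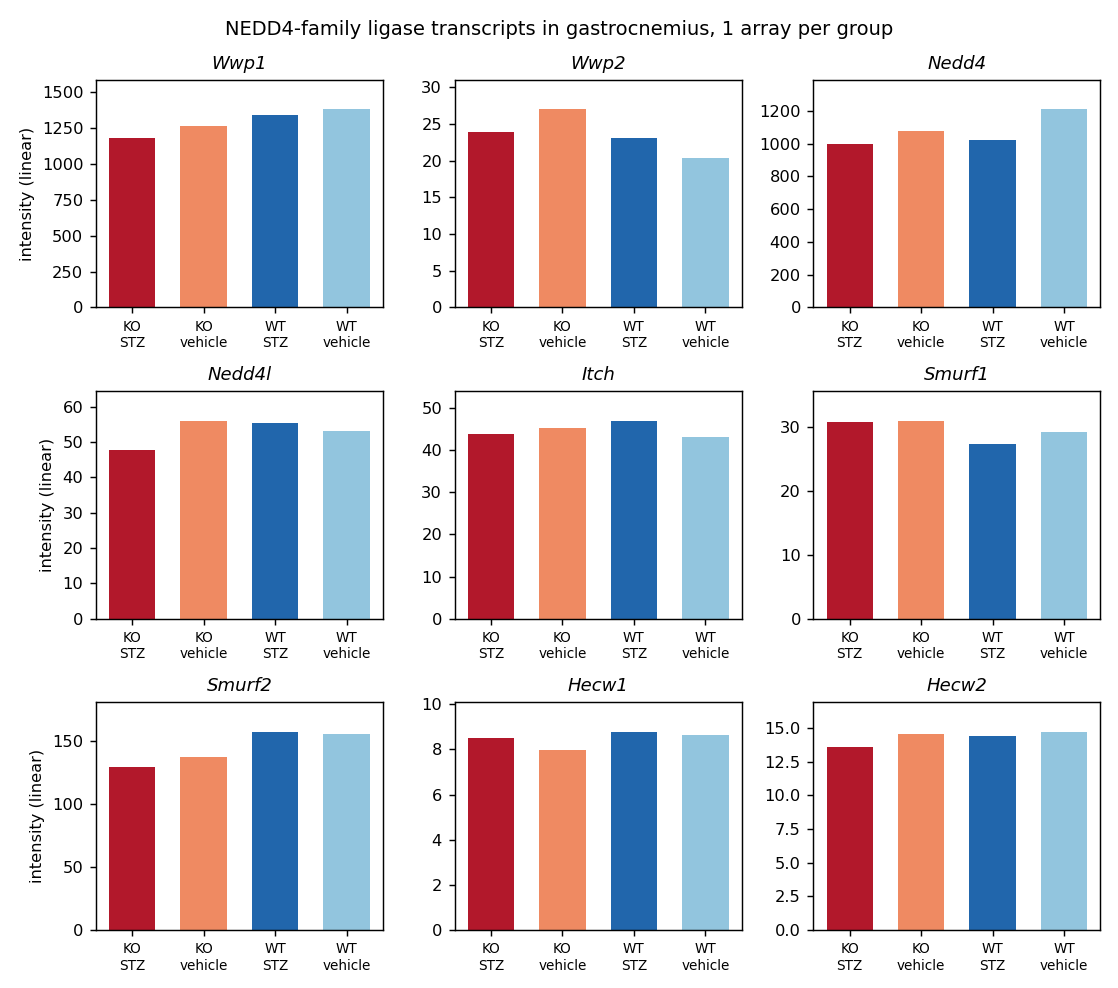
Intensity (linear, vertical axis from 0) of each of the 9 ligases on the 4 arrays, 1 bar per array, with no error bars because each group has 1 array. The bars of each gene are of similar height, Wwp2 having the widest span, from 20.4 in WT vehicle to 27.0 in KO vehicle; the scale differs between panels, and heights are not comparable between genes.

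Wwp1, the ligase proposed to tag KLF15 for degradation and in chickens the gene mutated in an inherited muscular dystrophy, read 1182 in KO STZ, 1263 in KO vehicle, 1339 in WT STZ and 1378 in WT vehicle. The KO arrays were the lowest pair, and within each genotype the STZ array was the lower one. The KO STZ array stood at 85.7% of the WT vehicle array. Wwp1 differed by -0.041 between WT STZ and WT vehicle, where 39.9% of kept genes had lower differences. Klf15 transcripts on the same WT arrays differed by 0.48 in the opposite direction. In KO muscle the STZ difference of Wwp1 was -0.095, with 37.5% of kept genes lower. KO differed from WT by -0.13 under vehicle and by -0.18 under STZ, with 25.8% and 28.8% of kept genes lower. All 4 values lay between percentiles 25 and 75 of the differences of all kept genes.

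The Wwp1 cluster read in the brightest 5% of kept genes, and so did that of Nedd4. Bright clusters as a whole differed between the arrays. Over the 663 genes at or above percentile 95 of level, the median difference was -0.16 for KO STZ against WT STZ and -0.063 for KO vehicle against WT vehicle. It was 0.019 for WT STZ against WT vehicle and -0.074 for KO STZ against KO vehicle. For Wwp1, the genotype difference under STZ shrank to -0.063 under quantile normalization and turned to 0.010 after removal of a loess trend with level. Under vehicle it was -0.041 with loess, and the STZ difference in WT ran from -0.086 to -0.032 over 8 other settings. The difference of -0.18 for Wwp1 under STZ thus stood beside a median of -0.16 for bright clusters in the same comparison.

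Nedd4, the founding member, which acts on growth factor receptors and rises at the protein level in disused muscle, read 996.5 in KO STZ, 1078 in KO vehicle, 1025 in WT STZ and 1210 in WT vehicle. The WT vehicle array stood above the other 3, which lay close together. WT STZ was at -0.24 against WT vehicle, the lowest STZ difference of the 9 in WT, with 10.5% of kept genes lower. That value ranged from -0.29 to -0.23 over 8 other settings. In KO, STZ differed from vehicle by -0.11, so that the KO value exceeded the WT value by 0.13. The genotype difference of Nedd4 was -0.17 under vehicle and -0.040 under STZ. The value under STZ turned to 0.18 under quantile normalization and 0.15 with loess, so no direction is drawn from it.

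Smurf2 and Smurf1 act on SMAD proteins and TGF-beta family receptors, and SMURF1 also on the GTPase RhoA. Smurf2 read 129.5 in KO STZ, 137.1 in KO vehicle, 157.4 in WT STZ and 155.7 in WT vehicle. The 2 KO arrays were below the 2 WT arrays, and the arrays within a genotype lay close. The genotype difference was -0.18 under vehicle and -0.27 under STZ, the lowest of the 9 in both comparisons, with 17.9% and 17.8% of kept genes lower. Under quantile normalization the difference under STZ was -0.12, and over 8 settings it stayed below 0. Smurf1 read 30.9 in KO STZ, 31.0 in KO vehicle, 27.4 in WT STZ and 29.3 in WT vehicle. Its KO arrays were thus above its WT arrays, opposite to Smurf2, with genotype differences of 0.074 under vehicle and 0.15 under STZ. The STZ differences of Smurf1 were -0.084 in WT and -0.0062 in KO.

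Wwp2, the closest relative of Wwp1 and a ligase abundant in cartilage, read 23.9 in KO STZ, 27.0 in KO vehicle, 23.0 in WT STZ and 20.4 in WT vehicle. The KO vehicle array was the highest and the WT vehicle array the lowest, with both STZ arrays between them. Its difference of 0.35 for KO vehicle against WT vehicle was the largest of any member in any pairwise comparison. Of all kept genes, 95.5% had lower differences there. The value ranged from 0.24 with an offset of 16 to 0.39 with an offset of 1, and was below 1.5-fold under all 8 settings. Under STZ the genotype difference was 0.047. The STZ difference was 0.15 in WT and -0.15 in KO. Wwp2 was thus the member with the largest genotype difference under vehicle but was near 0 under STZ, and without replicates the change between treatments could not be tested.

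Nedd4l, known for removing the epithelial sodium channel from the cell surface under control of the kinase SGK1, read 47.7 in KO STZ, 56.1 in KO vehicle, 55.5 in WT STZ and 53.3 in WT vehicle. The KO STZ array was the low one and the other 3 lay close. Its STZ difference was -0.22 in KO and 0.055 in WT, and its genotype difference was -0.20 under STZ and 0.070 under vehicle. The value of -0.20 became -0.095 under quantile normalization and -0.11 with loess, and the STZ difference in WT became 0.018 and 0.020. Sgk1, named after its values were seen, had STZ differences of -0.069 in KO and -0.043 in WT. Itch, a ligase of JUN and JUNB known from the inflammatory disease of itchy mice, read 43.8 in KO STZ, 45.3 in KO vehicle, 47.1 in WT STZ and 43.2 in WT vehicle. Only 6.60% of kept genes spanned a narrower range than Itch.

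Hecw1 and Hecw2, HECT ligases described mainly in nervous tissue, had clusters at percentiles 19.6 and 37.2 of the mean levels of kept genes. Hecw2 read 13.6 in KO STZ, 14.6 in KO vehicle, 14.4 in WT STZ and 14.7 in WT vehicle. Its differences ran from -0.079 to -0.011 in the 4 pairwise comparisons. Hecw1 was the only member with 2 clusters. The brighter read 8.49 in KO STZ, 7.99 in KO vehicle, 8.79 in WT STZ and 8.66 in WT vehicle. The dimmer read 3.62 in KO STZ, 4.47 in KO vehicle, 4.88 in WT STZ and 4.19 in WT vehicle and lay below the level filter, which corresponds to an intensity of 5.81. The clusters disagreed in sign for KO against WT under vehicle, at -0.080 and 0.051, and for STZ in KO, at 0.060 and -0.16. No direction is drawn for Hecw1.

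Across the family, the order of the arrays differed between genes. KO STZ was the lowest array for 5 of 9 members and the highest for 0 of 9. Among all kept genes KO STZ was lowest for 33.7% and highest for 19.6%. Both family counts depended on the scaling. With loess, KO STZ stood above WT STZ for Wwp1 and Nedd4, by 0.010 and 0.15, and was the lowest array for neither. Smurf1 was highest in KO STZ under quantile normalization and loess. The family median for STZ in KO was -0.080, beside a median of -0.032 for all kept genes. Above 0 stood 1 of 9 members, Hecw1, beside 42.8% of all kept genes, and 8 of 9 members were below 0. Of these 8, Itch and Smurf1 turned positive under quantile normalization and loess. The dimmer Hecw1 cluster was at -0.16, and the mean of both Hecw1 clusters at -0.049. In WT the STZ median was 0.015, beside 0.0075 for all kept genes. The genotype medians were -0.011 under vehicle and -0.062 under STZ, beside -0.0039 and -0.048. Each family median lay within 0.05 of that of all kept genes. The medians for STZ in WT and for genotype under vehicle changed sign under 2 and 1 of 8 other settings, so they carry no direction. The genotype differences had the same sign under both treatments in 7 of 9 members by the clusters used, Wwp1, Nedd4, Smurf2, Hecw1 and Hecw2 being lower and Wwp2 and Smurf1 higher in KO. For Hecw1 the dimmer cluster had the opposite sign under vehicle. For Wwp1 under loess, and for Nedd4 under loess and quantile normalization, the sign under STZ was positive instead. Signs were opposite in 22.2% of members and 43.5% of all kept genes.

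**Figure D2:**
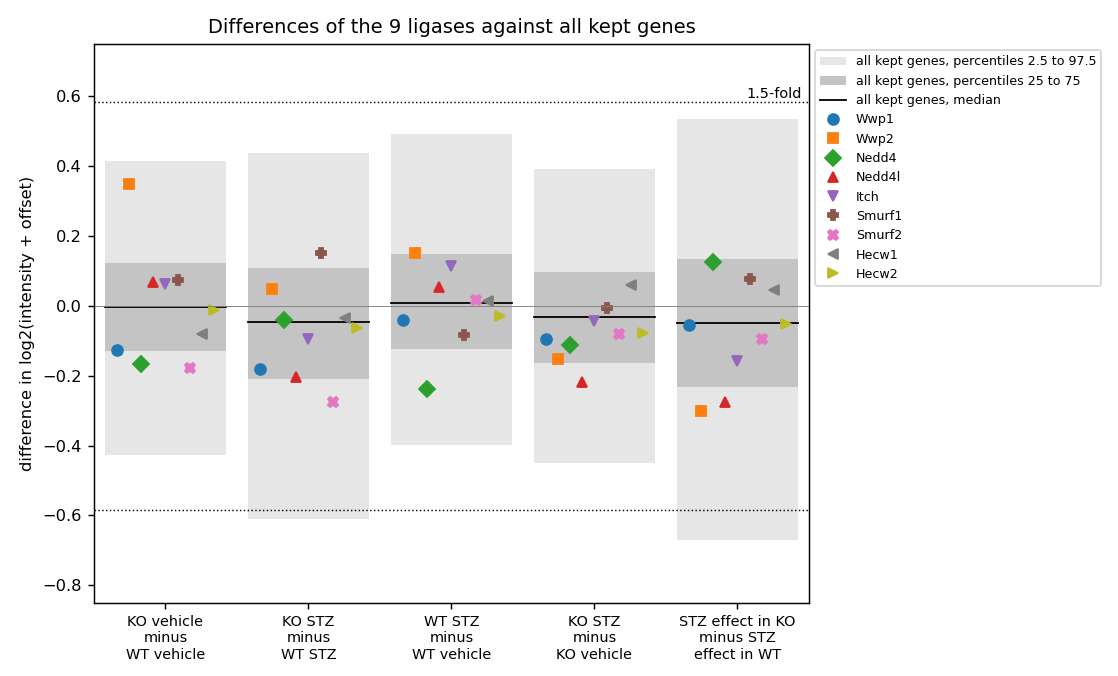
Difference in log2(intensity + offset) (vertical axis) of each ligase in the 4 pairwise comparisons and in the STZ difference in KO less the one in WT. Grey bands show the central 95% and percentiles 25 to 75 of all 13258 kept genes, the black line their median and the dotted lines 1.5-fold; all 9 ligases lie inside the wider band in every comparison, and Wwp2 at 0.35 in KO vehicle against WT vehicle comes nearest to its edge.

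**Figure D3:**
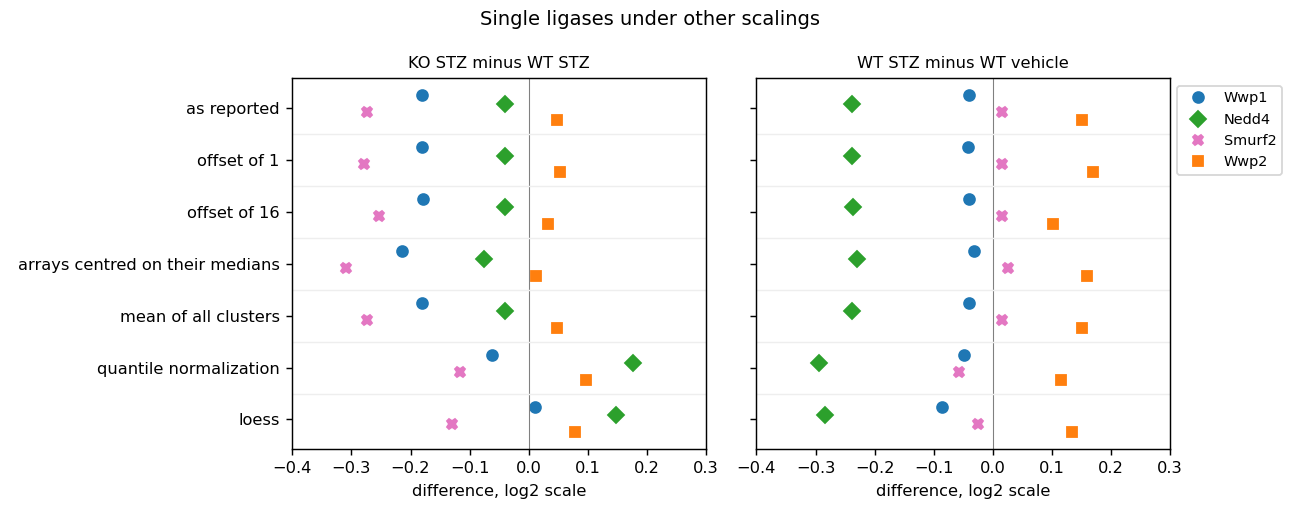
Differences on the log2 scale (horizontal axis) of Wwp1, Nedd4, Smurf2 and Wwp2 for KO STZ against WT STZ (left) and WT STZ against WT vehicle (right), as reported and under 6 other settings (rows); 1 array per group, no error bars. Under loess and quantile normalization Nedd4 crosses 0 in the left panel, at 0.15 and 0.18, Wwp1 reaches 0.010 and -0.063, and Smurf2 stays below 0, while on the right Nedd4 stays at or below -0.23.

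The genes whose pattern was most like that of Wwp1 were found by centring each gene on its own mean over the 4 arrays and taking the largest difference on any array. The nearest 3 were Zfp111, at 0.0070, Abcb4, at 0.0088, and Meak7, at 0.012 on the log2 scale. Within 0.05 of Wwp1 lay 255 of 13257 genes, or 1.92%, so with 4 arrays this likeness singles out no gene. In the family, Smurf2 was the nearest at 0.065 and Wwp2 the farthest at 0.27.

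The promoter windows of the members with the largest genotype differences under vehicle among those with a window are shown, because KLF factors are known to bind CACCC boxes and GC-rich boxes. Windows run from 250 bases before to 50 bases after a start site annotated by RefSeq on GRCm38.p6. They were matched to the members by symbol, and member windows on a single chromosome were left out. Windows remained for 5 of 9 members, Nedd4 having 2 starts. No window was found for Wwp1, Itch and Hecw1, and Nedd4l lost its window because it lay on the chromosome left out. Capitals mark matches to CACCC or GGGCGG on either strand (GGGTG or CCGCCC when read on the strand shown).
Wwp2, chr8:107436120-107436419, plus strand: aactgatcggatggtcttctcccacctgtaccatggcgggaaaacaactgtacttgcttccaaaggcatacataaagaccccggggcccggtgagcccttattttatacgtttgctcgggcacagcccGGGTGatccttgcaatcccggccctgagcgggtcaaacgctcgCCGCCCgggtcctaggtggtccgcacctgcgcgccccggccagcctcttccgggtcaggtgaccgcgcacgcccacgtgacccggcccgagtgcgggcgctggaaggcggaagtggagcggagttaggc
Smurf2, chr11:106920666-106920965, minus strand: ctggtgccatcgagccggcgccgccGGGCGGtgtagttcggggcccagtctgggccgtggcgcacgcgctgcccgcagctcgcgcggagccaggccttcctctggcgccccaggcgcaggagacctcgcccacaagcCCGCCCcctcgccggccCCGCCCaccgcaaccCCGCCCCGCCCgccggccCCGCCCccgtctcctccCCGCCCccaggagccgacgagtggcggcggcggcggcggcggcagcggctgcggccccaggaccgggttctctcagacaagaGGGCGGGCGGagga
Nedd4, first start, chr9:72662081-72662380, plus strand: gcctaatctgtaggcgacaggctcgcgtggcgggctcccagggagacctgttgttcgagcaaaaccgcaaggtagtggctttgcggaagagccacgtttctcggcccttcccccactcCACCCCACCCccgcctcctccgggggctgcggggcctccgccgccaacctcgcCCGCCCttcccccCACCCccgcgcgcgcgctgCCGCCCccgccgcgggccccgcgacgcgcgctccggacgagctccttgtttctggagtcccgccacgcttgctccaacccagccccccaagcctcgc
Nedd4, second start, chr9:72693048-72693347, plus strand: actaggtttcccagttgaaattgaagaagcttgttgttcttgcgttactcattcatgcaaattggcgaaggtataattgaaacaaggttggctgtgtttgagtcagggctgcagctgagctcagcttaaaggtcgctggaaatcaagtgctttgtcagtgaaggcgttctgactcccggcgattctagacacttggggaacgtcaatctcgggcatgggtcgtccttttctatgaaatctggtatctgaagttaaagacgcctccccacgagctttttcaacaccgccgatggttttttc

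The Wwp2 window held 1 match to CACCC and 1 to GGGCGG. At least 1 CACCC was present in 57.5% and at least 1 GGGCGG in 35.7% of all 32851 windows of 300 bases. The Smurf2 window held 9 matches to GGGCGG, some overlapping each other, and 0 to CACCC, and 0.125% of all windows held as many GGGCGG matches. The first Nedd4 window held 3 matches to CACCC, as many as 9.35% of windows, and 2 to GGGCGG. The second held 0 of either. Of the windows not shown, that of Smurf1 held 2 matches to GGGCGG and 0 to CACCC, and that of Hecw2 held 3 and 1. The genotype differences of Smurf1 and Hecw2 under vehicle were 0.074 and -0.011. Whether matches go with the differences was not tested. These are counts of letters and not binding sites, and the array does not tell which Nedd4 start was in use.

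Partners of the family were read from a list of 19 adaptors, E2 enzymes and regulators, all of them above the level filter. Against WT under vehicle, 0 of 19 were called in KO in either direction, beside 1.36% of all kept genes. Under STZ, 1 of 19 was called lower in KO and 0 higher, beside 2.81% and 0.845% of all kept genes. For STZ against vehicle, 0 of 19 were called in either genotype, beside 1.72% of all kept genes in WT and 1.1% in KO. Shares this low leave little room for a call among 19 genes. Cbl, named after its values were seen, was at -0.56 in WT and passed the threshold at -0.62 with an offset of 1. The list medians were -0.029 and -0.10 for genotype under vehicle and STZ, and -0.043 and -0.0067 for STZ in WT and KO. The median for genotype under STZ reached 0.045 under another setting, so it carries no direction.

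The member called was Arrdc4, an arrestin-related adaptor that bears PY motifs and whose transcription follows glucose in other tissues. It read 20.8 in KO STZ, 26.4 in KO vehicle, 39.8 in WT STZ and 26.9 in WT vehicle. The WT STZ array was high and the others were lower, the 2 vehicle arrays being alike. The genotype difference was -0.83 under STZ and -0.025 under vehicle, and the STZ difference was 0.51 in WT and -0.30 in KO. The difference between the STZ effects, KO minus WT, was -0.80, where 3.91% of kept genes were called lower, and it lay between -0.88 and -0.58 over 8 settings. Arrdc3, a related adaptor named here after its values were seen, read 224.6 in KO STZ, 198.8 in KO vehicle, 222.0 in WT STZ and 155.1 in WT vehicle, so the WT vehicle array was the low one. Arrdc1 and Arrdc2, also named after their values were seen, did not share the low value of Arrdc4. The genotype differences under STZ were 0.080 for Arrdc1, 0.35 for Arrdc2 and 0.016 for Arrdc3, the last changing sign with the setting.

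The adaptors Ndfip1 and Ndfip2, membrane proteins with PY motifs that recruit and activate the family, stayed below 1.5-fold in every comparison. Ndfip1 read 141.2 in KO STZ, 142.7 in KO vehicle, 177.4 in WT STZ and 159.1 in WT vehicle. Ndfip2 read 44.1 in KO STZ, 41.0 in KO vehicle, 50.9 in WT STZ and 47.7 in WT vehicle. Both were lower on the KO arrays, with genotype differences of -0.15 and -0.20 under vehicle and -0.32 and -0.19 under STZ. Under quantile normalization the values under STZ were -0.15 and -0.093. Smad6 and Smad7, inhibitory SMADs that bring the Smurf ligases to receptors, had genotype differences of -0.18 and 0.076 under vehicle and -0.10 and -0.18 under STZ.

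HECT ligases receive ubiquitin from E2 enzymes, of which 4 were listed. The UBE2D enzymes serve many ligase classes. Ube2d1 read 990.8 in KO STZ, 928.4 in KO vehicle, 1082 in WT STZ and 1227 in WT vehicle. Ube2d2a read 147.2 in KO STZ, 138.5 in KO vehicle, 178.9 in WT STZ and 167.2 in WT vehicle. Ube2d3 read 699.3 in KO STZ, 674.2 in KO vehicle, 875.9 in WT STZ and 855.3 in WT vehicle. For each of the 3, both KO arrays were below both WT arrays. The genotype differences under vehicle were -0.40 for Ube2d1, -0.27 for Ube2d2a and -0.34 for Ube2d3, and over 8 settings they reached at the weakest -0.32, -0.13 and -0.27. Under STZ they were -0.13, -0.28 and -0.32, and under quantile normalization they were 0.080, -0.10 and -0.083. The value of Ube2d2a under STZ was -0.044 at the weakest of 8 settings. Ube2l3, an E2 that works with HECT ligases in particular, read 486.4 in KO STZ, 590.1 in KO vehicle, 584.1 in WT STZ and 602.2 in WT vehicle, so its KO STZ array was the low one. Its STZ difference in KO was -0.28 and reached -0.042 at the weakest of 8 settings. The genotype difference of Ube2l3 under STZ was -0.26, and -0.057 under quantile normalization. The E2 enzymes were singled out after their values were seen.

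Described substrates of the family were read from a list of 35 genes, of which 31 had a cluster of their own and 28 passed the level filter. Against WT under vehicle, 2 of 28 were called lower in KO, Klf15 and Junb, beside 0.777% of all kept genes, and 0 were called higher, beside 0.581%. Klf15 is the deleted gene, which leaves 1 other. Under STZ, 1 of 28, Klf15, was called lower in KO and 0 higher, beside 2.81% and 0.845% of all kept genes. For STZ against vehicle 0 of 28 were called in either genotype, beside 1.72% of all kept genes in WT and 1.1% in KO. With shares this low, a count of 0 does not set the list apart. The medians were -0.059 and -0.041 for genotype under vehicle and STZ, and 0.0022 and -0.030 for STZ in WT and KO. The median for genotype under STZ reached 0.074 under another setting. The count for genotype under STZ rose to 5 when arrays were centred on their medians, since 4 further genes lay just inside the threshold.

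Those 4 were Junb, Klf2, Irs2 and Txnip, at -0.575, -0.569, -0.567 and -0.564, of which Irs2 and Txnip are named after their values were seen. Junb, an AP-1 transcription factor and a substrate of ITCH, read 43.3 in KO STZ, 35.5 in KO vehicle, 66.4 in WT STZ and 55.6 in WT vehicle. Both KO arrays were below both WT arrays, and within each genotype STZ was above vehicle. Its genotype difference under vehicle was -0.60 and lay between -0.63 and -0.47 over 8 settings, so it is near the threshold. Klf2, a KLF factor of endothelium and a WWP1 substrate, read 63.8 in KO STZ, 60.1 in KO vehicle, 96.4 in WT STZ and 64.7 in WT vehicle. The WT STZ array stood apart and the other 3 were alike. Txnip, an arrestin-related inhibitor of glucose uptake degraded through ITCH, read 1182 in KO STZ, 1237 in KO vehicle, 1750 in WT STZ and 1539 in WT vehicle, again with the WT STZ array highest.

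The other substrates named by rule were flat. Klf5, a KLF factor degraded through WWP1, had genotype differences of -0.19 under vehicle and -0.061 under STZ. Smad1 and Smad2, targets of the Smurf ligases, had genotype differences of -0.017 and 0.11 under vehicle and -0.041 and 0.11 under STZ. Smad3, named after its values were seen, read 60.1 in KO STZ, 90.6 in KO vehicle, 71.6 in WT STZ and 73.6 in WT vehicle. Its STZ difference was -0.57 in KO, the lowest of the substrates there, and -0.038 in WT. The value in KO ranged from -0.59 to -0.49 over 8 other settings. Igf1r, a receptor that NEDD4 acts on, was the highest of the substrates in both genotype comparisons, at 0.41 under vehicle and 0.46 under STZ. It read 28.4 in KO STZ, 31.1 in KO vehicle, 19.6 in WT STZ and 22.5 in WT vehicle, with both KO arrays above both WT arrays, and is named after its values were seen.

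**Figure D4:**
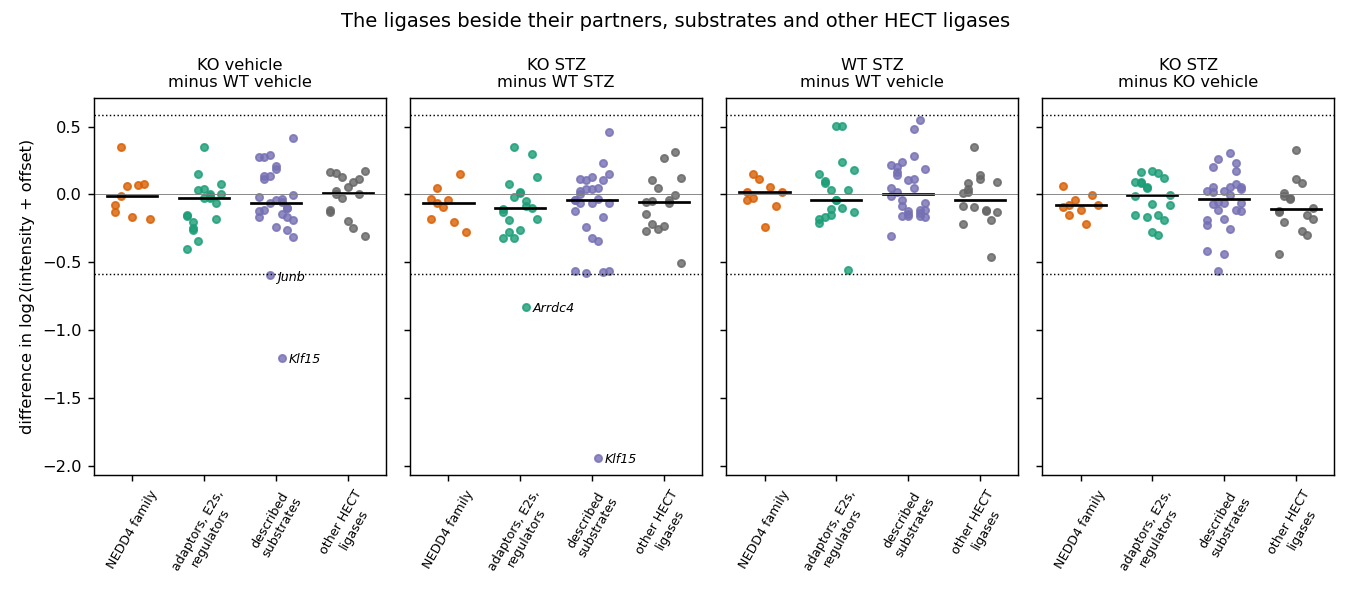
Difference in log2(intensity + offset) (vertical axis) of every kept gene of the family (9), its adaptors, E2 enzymes and regulators (19), its described substrates (28) and other HECT ligases (16) in the 4 pairwise comparisons, 1 point per gene, with black bars for list medians and dotted lines at 1.5-fold. Points past 1.5-fold are named, Klf15 and Junb in KO against WT under vehicle and Klf15 and Arrdc4 under STZ; none belongs to the family.

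HECT ligases outside the family, which have other substrate-binding domains, were read for comparison. Of 18 listed, 16 had a cluster of their own and all of these passed the level filter, and 0 of 16 were called in any of the 4 pairwise comparisons, beside 1.36%, 3.65%, 1.72% and 1.1% of all kept genes. Shares this low leave little room for a call among 16 genes. Their medians were 0.013 and -0.052 for genotype under vehicle and STZ, beside -0.011 and -0.062 for the NEDD4 family. For STZ they were -0.039 in WT and -0.11 in KO, beside 0.015 and -0.080. Huwe1, a very large ligase with many nuclear substrates, read 167.8 in KO STZ, 203.2 in KO vehicle, 175.6 in WT STZ and 190.0 in WT vehicle, so each STZ array was below its vehicle array. Herc2 was at -0.44 for STZ in KO and -0.22 for STZ in WT. The pairwise differences of Herc1 and Herc3 ran from -0.18 to 0.17. Ube3a, the ligase lost in Angelman syndrome and named after its values were seen, read 130.3 in KO STZ, 139.8 in KO vehicle, 186.1 in WT STZ and 174.2 in WT vehicle, with both KO arrays below both WT arrays.

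The muscle-wasting ligases of other classes, Fbxo32 (atrogin-1) and Trim63 (MuRF1), had STZ differences of 0.36 and 0.40 in WT and -0.31 and -0.19 in KO. Every member of the NEDD4 family lay between -0.24 and 0.15 for STZ in WT, and between -0.22 and 0.060 in KO.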

How the data were processed

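RNA of gastrocnemius from 4 groups was labelled as biotin-cRNA from 4 ug of total RNA and hybridised to Affymetrix arrays, per the labels' protocols, with 1 array per group. The deposited table holds 1 linear intensity per transcript cluster and array, for 41345 clusters, and the authors' background correction, summary and normalization were not stated in the labels. Of the clusters, 23521 carried 1 gene symbol, 1814 several and 16010 were not listed in the platform annotation. No build is named for the files, so positions are given only for the RefSeq promoter windows.

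Intensities were turned into log2(intensity + 3.69). A gene was kept when the mean of its brightest cluster lay above the median of all clusters. Array medians on the log2 scale spanned 0.035, so no scaling was applied. Alternatives were offsets of 1 and 16, quantile normalization, loess (fraction 0.3), median centring, other level filters and the mean of all clusters. No test, p-value or standard error was made, and the number of arrays limits the precision. The counting step was run on simulated arrays with shifts well past the threshold, which checks the counting only and not the calls made here. Genes named are the 9 members, Klf15, list genes past 1.5-fold and up to 4 others of each list in list order, and Fbxo32 and Trim63; the report says where a gene was named after its values were seen. The members and lists were chosen with earlier results of these data known. Python 3.11.15, pandas 2.3.3 and statsmodels 0.14.6 were used.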

Additional observations from a re-analysis of the deposited data

Results flagged for a closer look

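The STZ difference had opposite signs in the genotypes, each on 1 array per group, for 4 of 9 ligases, beside 48.5% of all kept genes. The difference between the effects, KO minus WT, was -0.30 for Wwp2, from -0.15 in KO and 0.15 in WT. It was -0.27 for Nedd4l, from -0.22 in KO and 0.055 in WT. It was -0.16 for Itch, from -0.043 in KO and 0.11 in WT. The Itch value in KO was 0.024 under quantile normalization and 0.0090 with loess, so its signs were then alike. For Smurf2 the difference between the effects was -0.096, from -0.080 in KO and 0.016 in WT. It turned to 0.041 under quantile normalization and 0.013 with loess. The Smurf2 value in WT was then -0.057 and -0.026, the same sign as in KO. Smurf1 became opposite under these 2 settings, at 0.037 and 0.032 in KO and -0.12 and -0.11 in WT. The count of 4 of 9 thus holds for the reported scaling. None of these differences could be tested. Sizes of at least 1.5-fold, which 0 of 9 ligases reached, were found in 5.67% of all kept genes.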

How the results depend on the processing

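Counts of ligases past 1.5-fold were 0 of 9 in all 5 comparisons at 2-fold and under each of 8 alternative settings other than the level filter at percentile 75, where they were 0 of 7 because it dropped Hecw1 and Hecw2. Of 45 differences of single ligases, 35 kept their sign under every setting and 10 did not, the largest of the 10 being that of Wwp1 for KO STZ against WT STZ. Of 350 values under other settings, 16 moved by over 0.1 and 0 passed 1.5-fold. Family medians stayed within 0.1 of their reported values. For STZ in KO the family median lay between -0.100 and -0.027, and for genotype under STZ between -0.098 and -0.013. The settings for the other lists were added after seeing the data. There, the count of substrates called for KO STZ against WT STZ was 1, against 5 with median centring and 4 with an offset of 1. For KO STZ against KO vehicle it was 0, against 2 with an offset of 1. The count of adaptors and regulators for WT STZ against WT vehicle was 0, against 1 with an offset of 1. An offset of 16 ended the call of Junb under vehicle and those of Klf15 and Arrdc4 for the difference between STZ effects. Medians of the other HECT ligases for KO STZ against WT STZ reached 0.038. Among all kept genes, the share of higher calls for KO STZ against WT STZ was 23.1%, against 39.1% under quantile normalization and 34.3% with loess. For STZ in WT it was 74.1%, against 63.9% under quantile normalization. For the difference between STZ effects it was 31.0%, against 44.0% under quantile normalization. An offset of 16 lowered that share to 10.5% for KO STZ against WT STZ and 27.3% for KO STZ against KO vehicle, where 6 genes were higher and 16 lower. Offsets also moved the number of called genes, which for KO vehicle against WT vehicle was 180, against 317 with an offset of 1 and 49 with an offset of 16. The deposited table gives no background signal, and the offset damps the differences of dim clusters. No paired analysis was possible because each group has 1 array.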
